A study of Mus musculus with 20 samples.

Results

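A set of 9 genes that make the hemoglobin of red blood cells or serve red cells in other ways was taken from the 48795 genes measured in whole mouse embryonic hearts, and their levels were followed heart by heart. The 9 were chosen by name as a readout of the blood carried in each dissected heart. They comprise 3 embryonic globins (Hba-x, Hbb-bh1 and Hbb-y), 4 adult globins (Hba-a1, Hba-a2, Hbb-bt and Hbb-bs) and 2 other erythroid genes (Alas2 and Slc4a1). All 9 passed the filter on low values, a mean normalized count of at least 10, which left 15304 genes for testing.

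The hearts came from embryos at E13.5. They comprised 10 WT hearts, 5 Dp1Tyb hearts and 5 Dp1TybDyrk1a+/+/- hearts, and each heart was sequenced as 1 mRNA library. Dp1Tyb mice model Down syndrome and carry an extra copy of the mouse chromosome 16 genes from Lipi to Zbtb21. Dp1TybDyrk1a+/+/- mice carry the same duplication together with the Dyrk1a tm1Mla null allele, which returns the kinase gene Dyrk1a to the normal number of active copies. Both alterations are germline and act in every tissue, so the blood had the same genotype as the heart around it. WT hearts were littermates of one or the other mutant group, and because the labels do not say which, all 10 served as controls for both. None of the 9 genes lies in the duplicated region.

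Red blood cells carry oxygen on hemoglobin, a tetramer of alpha-type and beta-type globin chains around heme. In the mouse the first red cells form in the yolk sac, circulate with their nuclei and make embryonic globins together with adult ones. Later, cells made in the fetal liver, which use the adult globins almost alone, take over the circulation. A heart taken whole from an embryo at this stage contains both the heart wall and whatever blood remained in its chambers and vessels. In bulk RNA fewer blood cells and less globin RNA per cell cannot be told apart.

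Library sizes are not known, because the deposited values are log2 normalized counts. Hearts are called A1 to A20 after their library numbers. Libraries A10 (WT) and A15 (Dp1TybDyrk1a+/+/-) stood apart from the rest, with weights of 0.258 and 0.094 in a fit that weights libraries by their agreement with their group, against 0.708 to 1.793 in the other 18 hearts. The tissue carried the defining genes of heart muscle at high levels, with log2 normalized counts of 16.78 to 17.32 for the myosin gene Myh7 and of 15.52 to 15.94 for the troponin gene Tnnt2. Of the 9 genes on a list for liver, where definitive red cells form, 5 passed the filter. On the same scale Alb was at 3.60 to 3.97 and Afp at 4.24 to 4.68, while Trf, which encodes transferrin, was at 7.72 to 8.18, and the summed level of the list was 8.27 to 8.42 in WT, 8.38 to 8.52 in Dp1Tyb and 8.19 to 8.36 in Dp1TybDyrk1a+/+/- hearts.

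The 9 genes were among the most variable in these hearts. Their SD over the 20 hearts ran from 0.50 to 0.64 on the log2 scale, against a median of 0.063 over all tested genes. All 9 ranked within the 100 genes of highest SD out of 15304, and Hba-x, Hbb-y and Hbb-bh1 held ranks 18, 19 and 20. The same WT heart, A2, had the lowest value of all 20 for every one of the 9 genes. The highest hearts came from all 3 genotypes, with A8 among WT, A6 and A7 among Dp1Tyb and A17 among Dp1TybDyrk1a+/+/- hearts. From the lowest to the highest heart the genes spanned between 3.66-fold for Hbb-bs and 6.16-fold for Hba-x.

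**Figure D1:**
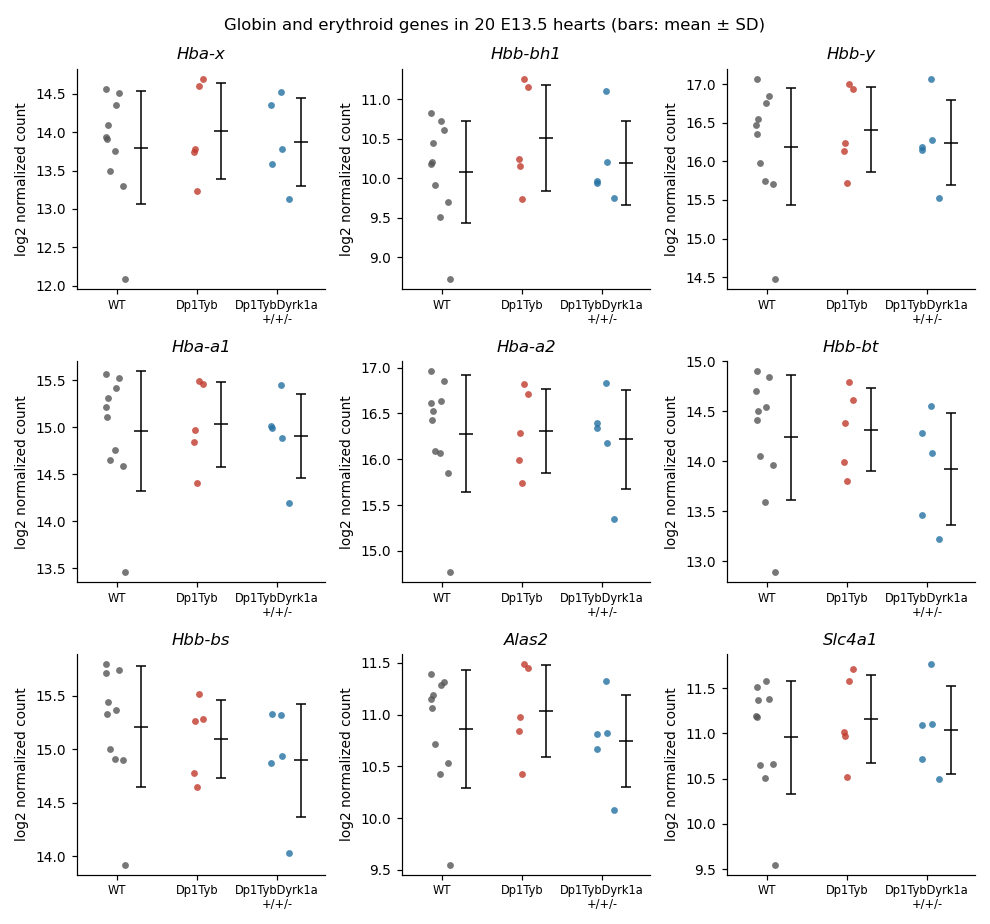
Log2 normalized count of each gene (y axis, a separate scale in each panel) by genotype (x axis). Points are hearts, and bars are the mean and SD of 10 WT, 5 Dp1Tyb and 5 Dp1TybDyrk1a+/+/- hearts. The groups overlap in every panel, and heart A2 is the low WT point.

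Levels can be compared between genes once transcript length is taken out. Hba-a1 and Hba-a2 share much of their sequence, as do Hbb-bs and Hbb-bt, and reads were split within each pair by estimation. The places of these adult globins in the order below are therefore uncertain. Per kilobase of the canonical transcript, Hba-a2 and Hbb-y were the most abundant, with median normalized counts of 130182 and 124133 per kilobase. Their order changed from heart to heart, since Hbb-y was the higher in 11 of 20 hearts, with a mean log2 difference of 0.02 ± 0.17 (SD, n = 20). Hbb-bs followed at 59457 and lay below Hba-a2 in 20 of 20 hearts. Hba-a1, at 44378, lay below Hbb-bs in 18 of 20. Then came Hbb-bt at 29203 and Hba-x at 18408, in that order in 19 of 20 hearts. Hbb-bh1 was far lower at 1916, under Hba-x in 20 of 20 hearts by a mean of 3.27 ± 0.27 on the log2 scale. Alas2 at 944 and Slc4a1 at 483 closed the order, again in 20 of 20 hearts. Together the 7 globins made up between 0.488% of the summed normalized signal, in heart A2, and 2.31%, in heart A8.

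The embryonic globins are considered first. Hbb-y encodes the epsilon-y chain and is the main embryonic beta-type globin of the mouse. It lies at chr7:103500956-103502423 on the minus strand of GRCm39. Its log2 normalized counts in WT hearts ran from 14.47 through a median of 16.41 to 17.06. The 5 Dp1Tyb hearts, A12, A3, A4, A6 and A7, had 16.13, 15.72, 16.24, 17 and 16.94. The Dp1TybDyrk1a+/+/- hearts A14, A15, A17, A18 and A9 had 15.52, 16.15, 17.07, 16.28 and 16.18. Hearts A6, A7, A8 and A17, from 3 genotypes, were close to 17, and apart from A2 the lowest hearts of the groups were near each other.

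Hbb-bh1 encodes a second embryonic beta-type chain, made early in primitive red cells, and lies at chr7:103490844-103492371 on the minus strand of GRCm39. WT hearts had log2 normalized counts of 8.72 to 10.82 with a median of 10.20. Dp1Tyb hearts, in the same order as for Hbb-y, had 10.24, 9.74, 10.15, 11.26 and 11.16. Dp1TybDyrk1a+/+/- hearts had 9.75, 9.96, 11.10, 10.21 and 9.94. Hearts A6 and A7 of the Dp1Tyb group lay above every WT heart, as did A17, and the other 7 mutant hearts fell inside the WT range.

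Hba-x encodes the zeta chain, the embryonic alpha-type globin, at chr11:32226400-32228116 on the plus strand of GRCm39. WT hearts had log2 normalized counts of 12.08 to 14.57 with a median of 13.92. Dp1Tyb hearts had 13.74, 13.24, 13.78, 14.61 and 14.70, and Dp1TybDyrk1a+/+/- hearts had 13.13, 14.36, 14.53, 13.78 and 13.58. Heart A15 was high for Hba-x, exceeded in its group by A17 alone, while for Hbb-bh1 A18 and for Hbb-y A18 and A9 exceeded it as well. A15 is one of the 2 libraries that stood apart.

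The adult globins include both adult alpha genes. Hba-a1 (chr11:32233186-32234504, GRCm39) and Hba-a2 (chr11:32246168-32247320, GRCm39) both lie on the plus strand and encode the alpha chain of fetal and adult hemoglobin. Log2 normalized counts of Hba-a2 ran from 14.77 through a median of 16.48 to 16.96 in WT hearts, from 15.74 to 16.82 in Dp1Tyb and from 15.35 to 16.83 in Dp1TybDyrk1a+/+/- hearts. Hba-a1 ran from 13.46 to 15.57, from 14.41 to 15.49 and from 14.20 to 15.45 in the same groups. Per kilobase, the log2 difference of Hba-a1 minus Hba-a2 was -1.50 ± 0.08 (SD, n = 20), with a range of -1.64 to -1.34 over the hearts.

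The adult beta genes are Hbb-bs (chr7:103475730-103482989) and Hbb-bt (chr7:103461727-103465047), both on the minus strand of GRCm39. For Hbb-bs WT hearts had log2 normalized counts of 13.92 to 15.80 with a median of 15.35. Dp1Tyb hearts had 14.78, 14.65, 15.26, 15.52 and 15.28 in the order A12, A3, A4, A6 and A7. Dp1TybDyrk1a+/+/- hearts had 14.03, 14.87, 15.32, 14.94 and 15.33 in the order A14, A15, A17, A18 and A9. The 3 highest hearts, A8, A5 and A1, were all WT, and heart A14 was nearly as low as A2. Hbb-bt ran from 12.89 to 14.90 in WT, from 13.80 to 14.79 in Dp1Tyb and from 13.22 to 14.55 in Dp1TybDyrk1a+/+/- hearts. Per kilobase, the log2 difference of Hbb-bt minus Hbb-bs was -1.01 ± 0.18 (SD, n = 20). It was -1.41 in A10 and -1.49 in A15, the 2 libraries that stood apart, against -1.14 to -0.75 in the other 18.

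Within each adult pair the coding sequences are nearly the same, and that bears on how reads can be split between the genes. The GENCODE M39 canonical transcripts of Hbb-bs and Hbb-bt differ at 1 of 441 coding bases, C417T, counted from the A of the start codon with the Hbb-bs base first. Hba-a2 and Hba-a1 differ at 1 of 426, T381C, with the Hba-a2 base first. The stretch around each difference is shown 5′ to 3′, with the differing base in capitals.
Hbb-bs: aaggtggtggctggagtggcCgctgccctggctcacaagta
Hbb-bt: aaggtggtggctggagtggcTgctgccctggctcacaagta
Hba-a2: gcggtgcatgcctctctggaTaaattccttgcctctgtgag
Hba-a1: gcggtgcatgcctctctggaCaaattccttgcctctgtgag

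Of all stretches of 50 bases in the transcripts, 91.6% of those of Hba-a2 and 79.5% of those of Hba-a1 occur in the other gene, as do 62.0% for Hbb-bs and 58.2% for Hbb-bt. The 2 members of a pair are therefore read as uncertain individually, since reads were assigned to them by estimation. The embryonic globins share no such stretch with another member. Over the same coding length Hbb-y is 74.4% identical to Hbb-bs and 76.4% identical to Hbb-bh1, and Hba-x is 61.5% identical to Hba-a2. The first 60 coding bases show how readily they separate, with each base that differs from Hbb-bs, or for Hba-x from Hba-a2, in capitals.
Hbb-bs: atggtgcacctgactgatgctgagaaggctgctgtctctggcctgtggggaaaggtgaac
Hbb-y: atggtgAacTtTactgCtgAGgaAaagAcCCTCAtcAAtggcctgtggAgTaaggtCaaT
Hbb-bh1: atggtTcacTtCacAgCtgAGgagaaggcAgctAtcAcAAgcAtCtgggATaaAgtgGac
Hba-a2: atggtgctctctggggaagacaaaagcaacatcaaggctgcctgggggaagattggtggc
Hba-x: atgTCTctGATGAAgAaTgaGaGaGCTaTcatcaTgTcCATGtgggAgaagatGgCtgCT

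Alas2 encodes the erythroid 5-aminolevulinate synthase, which starts heme synthesis in red cells, and lies at chrX:149330371-149353634 on the plus strand of GRCm39. Its log2 normalized counts in WT hearts ran from 9.55 through a median of 11.11 to 11.39. Dp1Tyb hearts had 10.84, 10.43, 10.98, 11.49 and 11.45, and Dp1TybDyrk1a+/+/- hearts had 10.08, 10.67, 11.32, 10.82 and 10.81. Hearts A6 and A7 lay just above every WT heart, and the other 8 mutant hearts fell inside the WT range.

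Slc4a1 encodes band 3, the anion exchanger of the red cell membrane, at chr11:102239650-102257029 on the minus strand of GRCm39. WT hearts had log2 normalized counts of 9.55 to 11.58 with a median of 11.19. Dp1Tyb hearts had 11.02, 10.52, 10.97, 11.58 and 11.71, and Dp1TybDyrk1a+/+/- hearts had 10.5, 11.09, 11.77, 11.11 and 10.72. Hearts A17 and A7 were highest and A2 lowest, and the groups overlapped.

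RefSeq promoters of GRCm38.p6, the build the authors used, were matched for 7 of the 9 genes. They are shown as a description, and whether they bear on the shared movement of these genes from heart to heart was not tested. Each line gives the 120 bases before the annotated start, 5′ to 3′, with motifs found by exact match on either strand in capitals. The motifs were the GATA sites TGATAA and AGATAA, the CACCC box CACCC, the CCAAT box CCAAT and a TATA-type box ATATAA. Motifs of these kinds are known to be bound by GATA1, KLF1, CCAAT-binding factors and the basal machinery in erythroid genes.
Hbb-y, chr7:103853208-103853327, minus strand: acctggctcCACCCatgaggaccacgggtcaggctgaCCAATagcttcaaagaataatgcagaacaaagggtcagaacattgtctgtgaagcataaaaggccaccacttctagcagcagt
Hbb-bs, chr7:103827929-103828048, minus strand: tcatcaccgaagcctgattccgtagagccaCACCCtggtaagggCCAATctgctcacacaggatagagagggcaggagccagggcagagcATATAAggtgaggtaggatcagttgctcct
Hbb-bt, chr7:103813924-103814043, minus strand: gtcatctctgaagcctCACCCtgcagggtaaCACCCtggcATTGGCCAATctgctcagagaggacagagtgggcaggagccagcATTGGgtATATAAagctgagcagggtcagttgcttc
Hba-x, chr11:32276480-32276599, plus strand: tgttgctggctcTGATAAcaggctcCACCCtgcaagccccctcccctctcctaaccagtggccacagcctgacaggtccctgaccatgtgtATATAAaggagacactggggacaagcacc
Hba-a1, chr11:32283552-32283671, plus strand: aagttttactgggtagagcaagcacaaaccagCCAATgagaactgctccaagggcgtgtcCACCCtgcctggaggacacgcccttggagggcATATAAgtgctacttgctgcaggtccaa
Alas2, chrX:150547297-150547416, plus strand: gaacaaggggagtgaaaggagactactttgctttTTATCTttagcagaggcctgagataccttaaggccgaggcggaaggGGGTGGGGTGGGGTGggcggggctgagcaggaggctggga

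The promoter of Hba-a2 matches that of Hba-a1 at 247 of 247 overlapping bases and is not repeated. Within 250 bases before the start, CACCC was found in 7 of 7 promoters, against 52.0% of all 32851 mouse promoters in the same table. TGATAA was found in 4 of 7, against 7.94% of all promoters, and AGATAA in 2 of 7, against 9.99%. CCAAT was found in 5 of 7, against 33.8%, and ATATAA in 5 of 7, against 9.10%. The CACCC box began 90 bases before the start in Hbb-bs and 111 before it in Hbb-y, and in both the CCAAT box followed, at 76 and 83 bases. Alas2 carried an AGATAA site on the opposite strand 86 bases before the start, and 3 adjacent CACCC boxes on that strand at 40, 35 and 30 bases before it. These matches describe letters in the sequence and not bound sites.

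The first question was whether the extra copies of the chromosome 16 genes went with more or less globin RNA in the heart. Compared to WT, Dp1Tyb hearts had higher mean values of 8 of the 9 genes, but none of the differences exceeded the spread between hearts. With limma over all tested genes, 0 of 9 had a Benjamini-Hochberg adjusted P-value under 0.05, where 471 of 15304 genes, or 3.08%, were called (1.81% higher and 1.27% lower). An unadjusted P-value under 0.05 was found for 0 of 9, against 2382 genes, or 15.6%, over all. The median log2 fold change of the 9 genes was 0.17, against -0.002 over all genes tested. The values of the groups overlapped for each of the 9 genes. The share of all tested genes that overlap is not given here, so the overlap is a description only.

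Hbb-bh1 had the greatest difference among the 9 in Dp1Tyb compared to WT hearts. Its mean log2 normalized count was 10.51 ± 0.67 (SD, n = 5) in Dp1Tyb and 10.09 ± 0.65 (n = 10) in WT hearts. Their log2 fold change was therefore 0.43 (standard error 0.31), with an adjusted P-value from limma of 0.569. The exact two-sided permutation test over 3003 regroupings of the hearts gave 0.257, unadjusted. The 95% confidence interval ran from 0.858-fold to 2.10-fold. Hbb-y and Hba-x followed with log2 fold changes of 0.21 and 0.21, Slc4a1 with 0.20 and Alas2 with 0.17. Hba-a1, Hbb-bt and Hba-a2 lay at 0.07, 0.07 and 0.03, and Hbb-bs at -0.11, with means of 15.10 ± 0.37 and 15.21 ± 0.56. Exact permutation P-values of all 9 lay between 0.257 and 0.932.

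The second question was whether the hearts with the duplication and a normal number of active Dyrk1a copies differed from WT. Compared to WT, Dp1TybDyrk1a+/+/- hearts had higher means for 4 of the 9 genes and lower means for 5. Again 0 of 9 were called, where 109 genes, or 0.712%, were called over all (0.627% higher and 0.0849% lower). Unadjusted, 0 of 9 had a P-value under 0.05, against 1475 genes, or 9.64%. The median of the 9 log2 fold changes was -0.05, against -0.003 over all genes. Hbb-bt and Hbb-bs had the lowest values, with log2 fold changes of -0.32 (95% confidence interval -0.91 to 0.27) and -0.31 (-0.85 to 0.22). Hbb-bh1 had the highest, at 0.11 (-0.54 to 0.75). Exact permutation P-values ran from 0.333 to 0.911.

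The last comparison set the hearts with 3 active copies of Dyrk1a against those with the normal number, both on the duplicated background. Means were higher in Dp1Tyb than in Dp1TybDyrk1a+/+/- hearts for 9 of the 9 genes, and 0 of 9 were called, where 178 genes, or 1.16%, were called over all (0.425% higher and 0.738% lower). Unadjusted, 0 of 9 had a P-value under 0.05, against 2838 genes, or 18.5%. The median log2 fold change was 0.17, against 0.003 over all genes. The 9 genes rise and fall together from heart to heart, so their shared sign is not 9 separate observations. Hbb-bt had the widest gap, 0.39 (-0.28 to 1.07), followed by Hbb-bh1 with 0.32 (-0.43 to 1.06) and Alas2 with 0.30 (-0.32 to 0.91). Hba-a2 had the smallest, 0.09 (-0.60 to 0.78). Over 252 regroupings the exact permutation P-values ran from 0.23 to 0.81, and the smallest value this design could give was 0.00794. The 3 comparisons share groups, so they are not independent of each other.

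**Figure D2:**
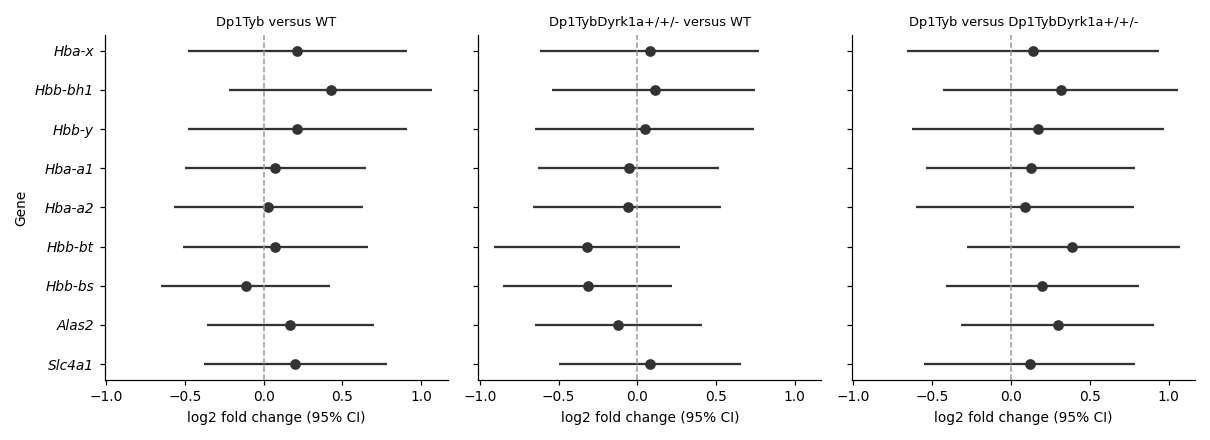
Log2 fold change of each gene (x axis) with its 95% confidence interval from limma, for the 3 genotype comparisons. Each of the 27 intervals spans 0, and the lowest bound over all of them is 0.534-fold and the highest 2.10-fold.

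Hearts were sequenced in lanes 3, 6 and 7, and the genotypes were spread unevenly over them, with 4, 4 and 2 WT hearts, 2, 2 and 1 Dp1Tyb hearts and 1, 1 and 3 Dp1TybDyrk1a+/+/- hearts. The difference between Dp1Tyb and WT hearts in Hbb-y was 0.01 in lane 3, 0.69 in lane 6, where heart A2 is, and -0.32 in lane 7. For Hbb-bh1 the same differences were 0.21, 0.90 and -0.09. Between Dp1TybDyrk1a+/+/- and WT hearts Hbb-bs differed by -1.22 in lane 3, where A14 is the single mutant heart, by 0.25 in lane 6 and by -0.34 in lane 7. In no comparison did any of the 9 genes keep 1 sign in all 3 lanes.

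Without libraries A10 and A15, a fit added after seeing the data, 0 of 9 genes were called in each comparison. Hbb-bh1 was then 0.36 higher on the log2 scale in Dp1Tyb compared to WT hearts, and the log2 fold change of Hbb-bt in Dp1TybDyrk1a+/+/- compared to WT hearts was -0.28. Leaving out the low WT heart A2 moved Hbb-y to 0.02 in the first of these comparisons and to -0.145 in the second.

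Although none of the 9 genes was called between genotypes, they largely moved together from heart to heart. Over the 20 hearts the 36 pairs of genes had Pearson correlations between 0.74 and 0.99, with a median of 0.94, and Spearman correlations of at least 0.69. All 36 had an adjusted permutation P-value under 0.05 for both measures (Benjamini-Hochberg over 36, 100000 permutations), and the highest was 0.00021 for Pearson and 0.00109 for Spearman. The closest pair was Hba-a1 and Hba-a2, with r = 0.99 and rho = 0.99 (permutation P = 1e-05 each, the smallest these permutations can give). Alas2, on chromosome X, and Slc4a1, on chromosome 11 with the alpha-type globins, also followed the globins. Hbb-y had r = 0.98 with Alas2 and 0.98 with Slc4a1.

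The loosest pair was Hbb-bh1 and Hbb-bs, an early embryonic and an adult beta gene, with r = 0.74 and rho = 0.69. Hbb-y and Hbb-bs had r = 0.87 and rho = 0.84, and Slc4a1 and Hbb-bs had r = 0.80 and rho = 0.74. When the 2 hearts farthest from the median of the first gene were left out, A2 being one of them for each of the 36 pairs, r ran from 0.61 for Hbb-bh1 and Hbb-bs to 0.98 for Hba-a1 and Hba-a2. With genotype means subtracted r ran from 0.82 to 0.99, and in the 10 WT hearts alone from 0.92 to 0.99. Without A10 and A15 the range was 0.74 to 0.99. All genes of a heart share its library and scaling, and part of the correlation within an adult pair can come from shared reads.

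The covariation held in lanes 3 and 6 and was looser in lane 7. In lane 3 (7 hearts) r ran from 0.72 to 1.0, with an adjusted exact permutation P-value under 0.05 for 35 of 36 pairs (31 by Spearman), and in lane 6 (7 hearts) from 0.87 to 1.0, for 36 of 36. In lane 7 (6 hearts) it ran from 0.03 to 1.0 with a median of 0.80, for 10 of 36 by Pearson and 0 of 36 by Spearman. Lane 7 holds 6 hearts and A15 is one of them. Hba-x and Hbb-bt, the pair at 0.03 in lane 7, had r = 0.91 in lane 3, 0.90 in lane 6 and 0.79 over all 20 hearts.

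**Figure D3:**
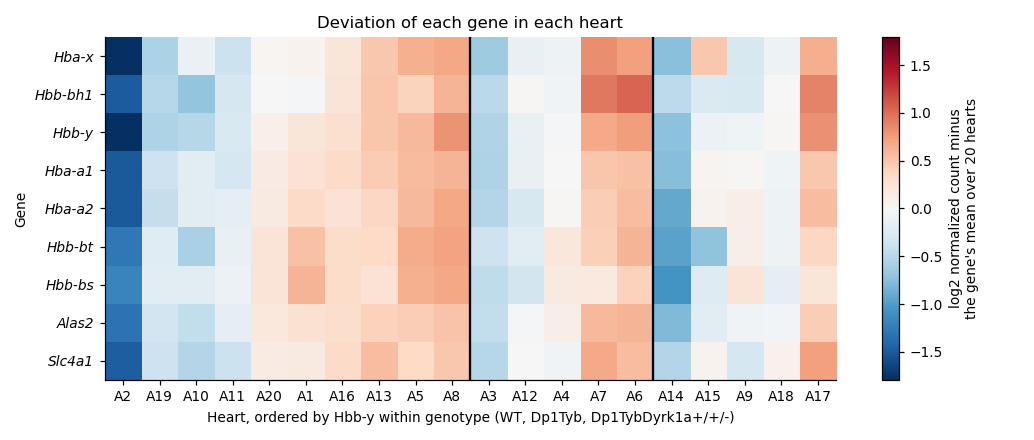
Each cell is the log2 normalized count of a gene (rows) in a heart (columns) minus that gene's mean over 20 hearts, with red above and blue below the mean. Columns are ordered by Hbb-y within WT, Dp1Tyb and Dp1TybDyrk1a+/+/- hearts, which black lines divide. Heart A2 is blue in all 9 rows, and A15 is red for Hba-x and blue for Hbb-bt.

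The embryonic genes did not take a fixed share of the globin RNA. Per kilobase, Hbb-y and Hbb-bh1 together made up 51.6% to 64.4% of beta-type globin in WT hearts, with a median of 58.8% and a mean of 58.6% ± 3.81 (SD, n = 10). In Dp1Tyb hearts A12, A3, A4, A6 and A7 they made up 63.8%, 59.4%, 58.2%, 65.6% and 68.0%, a mean of 63.0% ± 4.12 (n = 5). In Dp1TybDyrk1a+/+/- hearts A14, A15, A17, A18 and A9 they made up 66.1%, 65.6%, 69.7%, 64.0% and 56.8%, a mean of 64.4% ± 4.77 (n = 5). Of the Dp1Tyb hearts 2 of 5, and of the Dp1TybDyrk1a+/+/- hearts 3 of 5, lay above the highest WT heart, and the rest overlapped with WT. This share is given as a description and was not tested.

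The differences in mean share compared to WT were 4.40 percentage points for Dp1Tyb and 5.84 for Dp1TybDyrk1a+/+/- hearts. In lanes 3, 6 and 7 they were 3.99, 5.04 and 3.98 points for Dp1Tyb hearts. For Dp1TybDyrk1a+/+/- hearts they were 6.39, -0.087 and 6.58 points. The lane 7 value of Dp1Tyb hearts rests on A12 alone. Those of Dp1TybDyrk1a+/+/- hearts in lanes 3 and 6 rest on A14 and on A9 alone. Without A10 and A15 the differences over all lanes were 4.31 and 5.45 points, and without A2 they were 3.63 and 5.07.

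Among alpha-type globins the embryonic share was smaller. Hba-x made up 9.70% ± 0.856 (SD, n = 10) of alpha-type globin per kilobase in WT, 10.8% ± 1.38 (n = 5) in Dp1Tyb and 10.7% ± 1.90 (n = 5) in Dp1TybDyrk1a+/+/- hearts, with heart A9 lowest at 7.96% and A15 highest at 13.2%. Without A10 and A15 the difference between Dp1TybDyrk1a+/+/- and WT hearts fell from 0.951 to 0.420 percentage points. The sum of alpha-type globins stood at 0.898 ± 0.0697 (SD, n = 20) of the sum of beta-type globins per kilobase. A10 and A15, at 1.06 and 1.12, were the 2 hearts above 1, and the other 18 lay between 0.842 and 0.918.

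**Figure D4:**
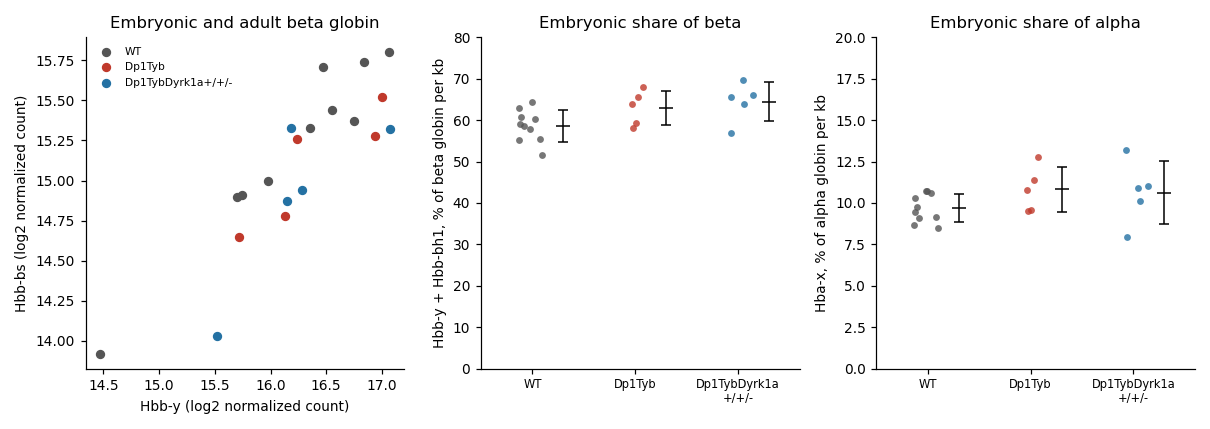
Left, Hbb-bs against Hbb-y in 20 hearts (log2 normalized counts, colored by genotype). Middle and right, the embryonic share of beta-type and of alpha-type globin per kilobase in percent, with hearts as points and mean and SD as bars. The share of beta-type globin spans 51.6% to 69.7% over all hearts, and mutant hearts overlap with WT.

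Other genes of the red cell were examined through lists of its pathways. Compared to WT, the medians of these lists in Dp1Tyb hearts lay between 0.008 and 0.060 on the log2 scale, against -0.002 over all genes. Of 21 tested genes of the red cell membrane and its skeleton, 0 were called in any of the 3 comparisons. The same held for 17 erythroid transcription factors and partners, 14 genes of heme synthesis and 10 red cell enzymes and related genes. Over all tested genes 3.08% were called in Dp1Tyb and 0.712% in Dp1TybDyrk1a+/+/- compared to WT hearts, and 1.16% between the mutant groups. For lists of this size, 0 calls lie near those shares. Of 8 tested genes of iron handling, Slc40a1, which encodes the iron exporter ferroportin, was lower in Dp1TybDyrk1a+/+/- compared to WT hearts, by a log2 difference of -0.15 (standard error 0.0348, adjusted P = 0.0351 by limma). That call was lost when any 1 of 10 of the 15 hearts was left out (A14, A15, A17, A1, A20, A2, A8, A13, A16 or A19), at adjusted P-values of up to 0.108, and with lane as a covariate, at 0.108.

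Erythropoietin signalling was measured through 9 tested genes. Kit, which encodes the receptor for stem cell factor, was lower in both mutant groups, with log2 fold changes of -0.16 in Dp1Tyb (limma adjusted P = 0.00213) and -0.13 in Dp1TybDyrk1a+/+/- (0.0293) compared to WT hearts. Its log2 normalized counts were 9.12 to 9.29 in WT, 8.97 to 9.15 in Dp1Tyb and 9.03 to 9.14 in Dp1TybDyrk1a+/+/- hearts. The second of these calls was lost when any 1 of 11 of the 15 hearts was left out (A14, A17, A18, A9, A1, A11, A2, A5, A8, A16 or A19), at adjusted P-values of up to 0.111, and when hearts were centred on their medians, at 0.0642. Across hearts Kit had r = 0.07 with Hbb-y after subtracting genotype means. Kit is also expressed outside the blood lineage, and which cells its lower values came from was not tested. Epor, the erythropoietin receptor, was called in no comparison, with log2 normalized counts of 5.41 to 5.63 over all hearts.

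Several regulators of blood formation lie in the duplicated segment, and the globins can be set beside them. Bach1, a heme-sensing repressor known to act on globin genes, was 0.40 higher in Dp1Tyb and 0.37 higher in Dp1TybDyrk1a+/+/- compared to WT hearts on the log2 scale (limma adjusted P = 5.4e-08 and 1.22e-07). Its log2 normalized counts were 10.43 to 10.64 in WT, 10.91 to 10.98 in Dp1Tyb and 10.78 to 10.99 in Dp1TybDyrk1a+/+/- hearts, so that neither mutant group overlapped with WT. Ets2 was 0.36 and 0.37 higher, and Gabpa 0.30 and 0.44 higher, all 4 called. Erg was called in Dp1TybDyrk1a+/+/- hearts alone (0.24, adjusted P = 0.0214) and that call was lost with lane as a covariate, at 0.0597, and with the hearts of these genotypes fitted alone, at 0.0736. Runx1, at 6.44 to 6.90, was called in neither. Of these 5, 3 were called higher in Dp1Tyb and 4, Erg included, in Dp1TybDyrk1a+/+/- compared to WT hearts. Over all genes 1.81% and 0.627% were called higher, and of the 9 globin and erythroid genes 0 were called. These are levels of the whole heart. After subtracting genotype means, correlations of the 5 with Hbb-y ran from -0.37 for Runx1 to 0.51 for Bach1, with a median of -0.12. Whether they act on the globins here was not tested.

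The genes whose pattern over hearts was most like that of Hbb-y were sought among 15295 other tested genes, by Pearson correlation over 20 hearts after subtracting genotype means. The 5 highest were Tent5c (0.99), which encodes a poly(A) polymerase, Bpgm (0.98), the red cell enzyme that makes 2,3-bisphosphoglycerate, Car2 (0.97), a carbonic anhydrase, Hsd3b6 (0.97), of the steroid dehydrogenase family, and Pdzk1ip1 (0.97). For Hbb-bs, genes among the highest included Fam220a (0.94), the ubiquitin ligase gene Mkrn1 (0.92) and the mitochondrial iron importer gene Slc25a37 (0.91). At 0.90 or more there were 31 genes for Hbb-y and 4 for Hbb-bs, and at 0.80 or more there were 76 and 34.

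At the other end the correlations were weaker. The lowest with Hbb-y were Gm19569 (-0.77), Tbc1d9b (-0.76), Il23a, Ltbp2 and Gipc2 (-0.73 each), and those among the lowest with Hbb-bs included Fbln5 (-0.76), Cxcl12 (-0.75), Col24a1 (-0.74) and Rassf4 (-0.73). No gene reached -0.80 with either. Fbln5 encodes a protein of elastic fibers and Ltbp2 a protein of the extracellular matrix. These values describe likeness over the same 20 libraries and carry no test.

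Red cell genes outside the 9 covaried with Hbb-y to very different degrees. In the membrane list the median correlation was 0.81 and 11 of 21 genes were at 0.80 or more, among them Epb42 (0.92), Kel (0.92) and Ermap (0.91). Of the 21 genes 5 were below 0.5, among them Tmod1 at -0.14, Stom at -0.08 and Aqp1 at -0.17. Heart or vessel cells also use Tmod1, Stom and Aqp1, and whether this bears on their correlations was not tested. Among red cell enzymes 5 of 10 genes reached 0.80. Heme synthesis had a median of 0.46, with Fech, the enzyme that inserts iron into heme, and Fam210b at 0.87 each, and with Alas1, the form of the synthase used outside red cells, at -0.26. The 17 erythroid transcription factors and partners had a median of 0.27, with 6 at 0.80 or more and 9 below 0.5. Tal1 was at 0.96, Nfe2 at 0.88, Gata1 at 0.87 and Klf1 at 0.63, while Bcl11a, a repressor of embryonic globins, was at -0.19 and Sox6 at 0.15.

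Some of these regulators were near the low end of the scale. Log2 normalized counts of Gata1 were 4.34 to 4.51 and those of Klf1, the erythroid factor that binds CACCC boxes, 3.89 to 4.10 over the 20 hearts, where the transformation draws values toward the gene's mean. Myb, which marks the definitive lineage, was at 5.29 to 6.04 and had r = -0.10 with Hbb-y. Of the other globins Hbb-bh0 and Hbq1b, at 4.63 to 4.95 and 4.38 to 4.65, had r = 0.88 and 0.87. Mb, the myoglobin of heart muscle, was at 11.28 to 11.96 with r = -0.47.

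As lists, markers of other cells moved little with the globins. Median correlations with Hbb-y were 0.19 for 14 cardiomyocyte genes, 0.16 for 8 endothelial and endocardial genes and 0.08 for 15 platelet genes. They were -0.11 for 10 macrophage genes and -0.03 for 5 liver genes, and none of these genes reached 0.80. The highest in these lists, in the same order, were 0.62 for Myl7, 0.66 for Npr3, 0.50 for Pf4, 0.18 for Mrc1 and 0.09 for Apoa2. The summed log2 level of cardiomyocyte markers was 18.86 to 19.19 in WT hearts, and both mutant groups lay inside that range. That of platelet markers was 11.20 to 11.37 in WT, 11.47 to 11.60 in Dp1Tyb and 11.40 to 11.50 in Dp1TybDyrk1a+/+/- hearts. Vwf had the highest mean log2 level of that list, at 10.38 against 8.87 for Itgb3, so it weighed most in the sum. The median log2 fold change of the list compared to WT was 0.035 in Dp1Tyb and -0.004 in Dp1TybDyrk1a+/+/- hearts. Vwf, which endothelial cells also make, was called higher in both mutant groups (0.47 and 0.33 on the log2 scale, limma adjusted P = 2.5e-06 and 0.000502), while 0 of the other 14 platelet genes were called. Of the macrophage genes, Lyz2 was 0.28 higher in Dp1Tyb compared to WT hearts (adjusted P = 0.000486) and 0.23 higher compared to Dp1TybDyrk1a+/+/- hearts (0.0327). The second of these was lost with lane as a covariate, at 0.0975, and without any 1 of A3, A4, A6, A15, A17 or A18, at up to 0.0955.

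**Figure D5:**
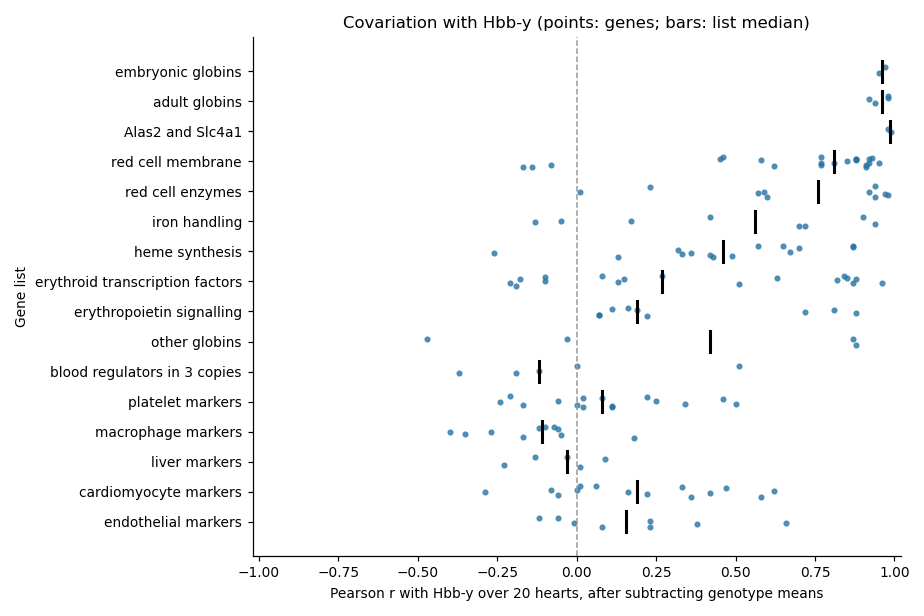
Pearson correlation with Hbb-y over 20 hearts after subtracting genotype means (x axis) for the tested genes of each list (rows), with points for genes and black bars for list medians. Hbb-y itself is not drawn. The other globin and erythroid genes of the set lie at 0.92 or above, red cell lists spread from below 0 to 0.98, and markers of other cells lie at 0.66 or below.

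The calls over all tested genes were also counted in a fit that took account of a red cell gene. With Alas2 added to the fit as a covariate, 428 genes were called in Dp1Tyb compared to WT hearts, against 471 without it. The counts were 108 against 109 for Dp1TybDyrk1a+/+/- compared to WT and 140 against 178 for Dp1Tyb compared to Dp1TybDyrk1a+/+/- hearts. A fit with a covariate also estimates an additional term, and why the counts differed was not tested.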

How the data were processed

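mRNA libraries (KAPA mRNA HyperPrep, Illumina sequencing) from 20 E13.5 hearts were trimmed, aligned and counted by the authors. The submitters' processing notes name Trimmomatic 0.36, STAR 2.5.2a, RSEM 1.2.31 and the DESeq packages, and the build GRCm38. The deposited values are log2 normalized counts for 48795 Ensembl genes. The transformation is not given in the sources used here, and values of weakly expressed genes are drawn toward the gene's mean. Read depth is unknown, so no counting interval is given and precision rests on the spread between hearts.

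Because the values are not counts, limma 3.58.1 (R 4.3.3; lmFit, eBayes with trend) was fitted to all 20 hearts with 1 mean per genotype, over the 15304 genes whose normalized count averaged 10 or more. Genes were called at an adjusted P-value (Benjamini-Hochberg) under 0.05. Single genes were also compared by exact two-sided permutation tests, and pairs of genes by permutation (100000) with scipy 1.17.1. Each heart is a separate embryo. Names, lengths and positions came from GENCODE M39 (GRCm39), and promoters from RefSeq (GRCm38.p6). Of the listed genes, Ahsp was not analysed here. The genes and lists were chosen with earlier results of these data known. Named were the 9 genes, the 5 most and 5 least alike to Hbb-y and Hbb-bs, and the called and best known list members. Some genes that this rule names are not reported here. Epb42, Kel, Ermap, Tmod1, Stom, Fam210b, Hbb-bh0 and Hbq1b were named after their values were seen. Alternatives varied the filter, scaling, weights, covariates, hearts and trend.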

Additional observations from a re-analysis of the deposited data

Results flagged for a closer look

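WT heart A2 lay far below the other 9 WT hearts for 7 of the 9 genes by Dixon's criterion for an extreme value. Its log2 normalized counts, each followed by the next lowest WT heart, were 12.08 and 13.30 for Hba-x, 14.47 and 15.70 for Hbb-y, 13.46 and 14.59 for Hba-a1, 14.77 and 15.85 for Hba-a2, and 13.92 and 14.90 for Hbb-bs. For Alas2 they were 9.55 and 10.43, and for Slc4a1 9.55 and 10.51. The gap made up 0.471 to 0.536 of the range of the WT hearts, against a critical value of 0.466. Since the 9 genes move together, the 7 extreme values rest on 1 heart and are not separate events.

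WT heart A10 was the other extreme value, with a log2 difference of Hbb-bt minus Hbb-bs per kilobase of -1.41, where the next lowest WT heart had -1.12. A10 is one of the 2 libraries that stood apart over all genes. Of 45 groups of values examined, 8 held such a value, and chance gives one in about 1 in 20.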

How the results depend on the processing

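No paired analysis was possible because the labels give the hearts no replicate numbers that the genotypes share. In 10 alternatives to the fit and without any single heart, 0 of 9 genes were called in each comparison, and the lowest adjusted P-value of any of them was 0.333. Of the 27 log2 fold changes, none of them called, 16 changed sign in some alternative or with some heart left out. With lane as a covariate Hba-x, Hbb-y and Slc4a1 were at -0.0547, -0.0677 and -0.0694 in Dp1TybDyrk1a+/+/- compared to WT hearts, with the cardiomyocyte mean as a covariate Hbb-y was at -0.0272, and without A10 and A15, an alternative chosen after seeing the data, Hba-x was at -0.0517. The cause was not tested. With 1 heart left out, log2 fold changes in Dp1Tyb compared to WT hearts ran from -0.0941 to 0.228 for Hba-a1, from -0.138 to 0.172 for Hba-a2 and from -0.0759 to 0.202 for Hbb-bt. In Dp1TybDyrk1a+/+/- compared to WT hearts they ran from -0.116 to 0.261 for Hba-x, from -0.12 to 0.219 for Hbb-bh1, from -0.161 to 0.226 for Hbb-y, from -0.103 to 0.214 for Slc4a1, from -0.22 to 0.122 for Hba-a1, from -0.232 to 0.152 for Hba-a2 and from -0.268 to 0.0421 for Alas2. In Dp1Tyb compared to Dp1TybDyrk1a+/+/- hearts they ran from -0.0471 to 0.333 for Hba-x, from -0.122 to 0.247 for Hba-a2, from -0.0158 to 0.305 for Slc4a1, from -0.012 to 0.375 for Hbb-y, from -0.05 to 0.282 for Hba-a1 and from -0.0167 to 0.312 for Hbb-bs. Of the 36 correlations, 10 passed the threshold within lane 7, where 6 hearts remain.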
